A study of Homo sapiens with 12 samples.

Results

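The 10 genes described here encode heat shock chaperones of human cells: HSPA1A, HSPA1B, HSPA8, HSP90AA1, HSP90AB1, HSPB1, DNAJB1, HSPH1, HSPD1 and HSPE1. They were taken by symbol from the 60660 genes of each deposited table, and all 10 were found. mRNA was sequenced from LNCaP and 22Rv1, a pair of established human PCa cell lines. Each line received NC-mimic (NC) or a synthetic mimic of the piRNA piR-4447944. All cells, controls included, were grown under androgen deprivation in 10% CS-FBS, which is charcoal-stripped serum. LNCaP came from a lymph node metastasis, and 22Rv1 from a xenograft that relapsed after castration. There were 3 libraries in each of the 4 groups, and the study states that its experiments were done in triplicate and repeated independently. The sample labels do not say whether the 3 libraries of a group came from separate cultures, and if they did not, the p-values measure only technical spread. The study asked which mRNAs change with piR-4447944, and this question was put to the chaperones in each line. Their levels in both lines were compared as well.

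Heat shock chaperones bind unfolded proteins and help them to fold, to stay soluble or to be degraded. HSP70 proteins are loaded with substrate by J proteins of the HSP40 family and release it with the help of nucleotide exchange factors, while HSP90 proteins take over clients such as the androgen receptor at a late step of folding. HSF1, the main transcription factor of the heat shock response, binds inverted repeats of the unit GAA upstream of many of these genes. In PCa the androgen receptor is kept ready to bind hormone by HSP70, HSP90 and their co-chaperones.

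Library depth ran from 12161091 to 22179601 expected counts. Both lines had the luminal markers of the prostate, with 9 of 9 markers at 1 TPM (a level scaled to transcript length) or more in every library. The 8 markers of other cell types summed to between 6.54 and 46.6 TPM, most of it COL1A1 (33.3 ± 5.34 TPM in LNCaP NC, 7.67 ± 3.56 in 22Rv1 NC, SD, n = 3). PTPRC, CD3E and PECAM1, which mark leukocytes, T cells and endothelium, were at 0.35 TPM or less in every library. The other markers were not all that low. CD68 reached 6.02 TPM in LNCaP and 4.03 in 22Rv1, and VWF 1.86 and 0.08. DCN reached 0.2 TPM in LNCaP and 2.89 in 22Rv1, and COL3A1 0.54 and 1.26. Library 3 of the 22Rv1 mimic group stood apart from the rest. The 10 low oxygen genes, which cells induce under hypoxia, summed to 3720 TPM there and to between 225 and 514 TPM in the other 22Rv1 libraries, and the 13 mitochondrially encoded genes summed to 35734 TPM against 94629 to 112058. For the mimic comparison in 22Rv1 the members' fold changes are therefore also given without it. In the other comparisons that use this library they are given without it for some members only. In bulk RNA, fewer cells of a type and less RNA per cell cannot be told apart.

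The promoters of the members were read from RefSeq windows of GRCh38.p14, which run from 250 bases before to 50 bases after each start, and all 10 members matched. The inverted repeat GAANNTTCNNGAA, or TTCNNGAANNTTC on the other strand, was in 0.490% of 35116 windows. It was in 4 of the 16 windows of the members, those of the 4 genes HSPA8, HSP90AA1, HSP90AB1 and HSPD1. The shorter palindrome GAANNTTC, which lies inside the longer motif, was in 6.77% of all windows and in 9 of the 16 windows of the members. These 9 belong to 8 genes, all but HSPH1 and HSPE1. The stretches below show what the windows of the HSP70, HSP90 and chaperonin genes hold, 5′ to 3′ on the strand of the gene, with the longer motif in capitals, or the palindrome in capitals for HSPA1A and HSPA1B.
HSPA8 at chr11:123062345-123062374 (minus strand): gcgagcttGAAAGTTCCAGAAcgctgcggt
HSPA8 at chr11:123062170-123062199 (minus strand): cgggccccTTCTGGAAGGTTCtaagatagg
HSP90AA1 at chr14:102087111-102087140 (minus strand): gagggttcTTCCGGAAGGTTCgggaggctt
HSP90AB1 at chr6:44247770-44247799 (plus strand): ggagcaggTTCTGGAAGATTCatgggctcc
HSP90AB1 at chr6:44247823-44247852 (plus strand): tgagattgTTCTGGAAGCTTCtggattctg
HSPD1 at chr2:197500061-197500090 (minus strand): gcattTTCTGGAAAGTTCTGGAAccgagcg
HSPA1A at chr6:31815426-31815455 (plus strand): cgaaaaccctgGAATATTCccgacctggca
HSPA1B at chr6:31827622-31827651 (plus strand): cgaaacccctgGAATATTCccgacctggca
These matches are descriptions of the letters and not of binding. The HSPD1 stretch also lies upstream of the annotated start of HSPE1 (197500140, plus strand). That the motifs were missing for HSPE1 therefore holds for the RefSeq windows searched and depends on the start used. The HSPA1A and HSPA1B windows shared 277 aligned bases, with 22 mismatches and 2 gap positions, and the HSPD1 and HSPE1 windows, which face each other on chromosome 2, shared 204 bases.

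The members together made up 0.626% to 0.692% of all TPM in LNCaP and 0.421% to 0.554% in 22Rv1. The lowest value was library 3 of the 22Rv1 mimic group, and the other 5 libraries of that line were at 0.531% or above. In LNCaP NC the order of levels was led by HSPA8, the constitutive HSP70 (1439.5 ± 289.5 TPM, SD, n = 3 here and below), and by HSPB1, the small heat shock protein HSP27 (1310.1 ± 212 TPM), whose ranges overlapped. HSP90AA1 (988 ± 110 TPM) and HSP90AB1 (917 ± 99.7 TPM), the HSP90 proteins of the cytosol, came next without overlap with HSPB1, and overlapped with each other. HSPD1 (799 ± 33.4 TPM), the mitochondrial HSP60, overlapped both HSP90AB1 above it and HSPE1, its lid HSP10 (727 ± 66.1 TPM), below it. A gap separated them from HSPA1B (236 ± 38.2 TPM), a stress-inducible HSP70, and a further gap from HSPH1, the HSP110 exchange factor of HSP70 (89.6 ± 19.3 TPM), and DNAJB1, its HSP40 partner (83.1 ± 8.29 TPM). HSPA1A, the near-identical neighbour of HSPA1B, was last at 1.25 ± 0.505 TPM.

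In 22Rv1 NC the order was led by HSPD1 (1099 ± 51.9 TPM), followed by HSPB1 (952 ± 335 TPM), HSPA8 (866 ± 237 TPM) and HSP90AB1 (866 ± 26.7 TPM), each overlapping its neighbour. HSPE1 (778 ± 44.1 TPM) lay below HSP90AB1 without overlap, and HSP90AA1 (522 ± 18.2 TPM) below HSPE1. HSPA1B (177 ± 35.7 TPM) and DNAJB1 (57.7 ± 7.64 TPM) followed without overlap, and HSPA1A (37.7 ± 2.45 TPM) overlapped HSPH1 (31.2 ± 8.40 TPM), which was last. The order of the 10 means was the same in the mimic group of each line.

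**Figure D1:**
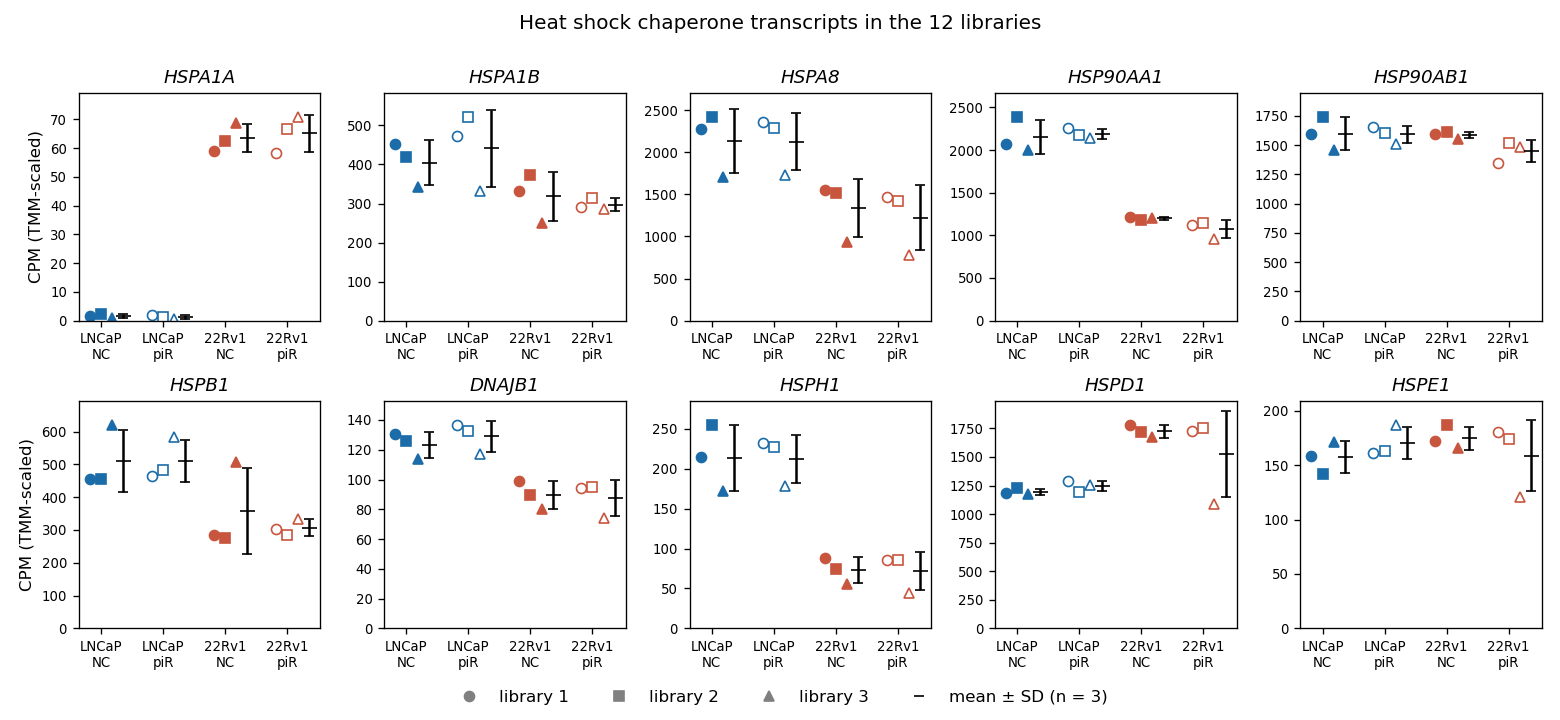
Level of each chaperone in the 12 libraries, in CPM (counts scaled to the library size with TMM factors, y axis from 0, a scale of its own for each gene), by group (x axis, piR = piR-4447944 mimic). Circles, squares and triangles are libraries 1, 2 and 3, filled symbols are NC and open symbols mimic, and the bar is the mean ± SD (n = 3); HSPA1A is near 0 in LNCaP and at 58.1 to 70.7 CPM in 22Rv1, and the triangles of HSPA8, DNAJB1 and HSPH1 are the lowest of every group.

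The mimic was compared with NC in LNCaP first. The thresholds of the study, an unadjusted p under 0.05 with an absolute log2 fold change over 0.2, were applied here to the fold changes of edgeR, whereas the study applied them to shrunken ones. By this rule 0 of 10 members changed, where 2.22% of 16244 genes did, 1.38% higher and 0.843% lower (edgeR quasi-likelihood test). The count of members with an unadjusted p under 0.05 was also 0, and DESeq2 and limma called 0 members too. With shrunken fold changes of DESeq2 the rule called 3 of 16244 genes and 0 members. The fitted log2 fold changes lay between -0.42 for HSPA1A and 0.12 for HSPA1B, with 5 of 10 above 0 and a median of 0.01, beside a median of -0.0027 over all genes. The smallest unadjusted p was 0.204 (HSPE1), and all 10 adjusted p-values of edgeR were 0.999. In 0 of 10 members were the 3 NC and 3 mimic libraries separated in CPM (counts scaled to the library size, not to transcript length), against 7.85% of all genes, 4.11% upward and 3.74% downward.

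The intervals show how large a difference the LNCaP libraries could have hidden. For HSP90AA1 the 95% interval of the log2 fold change was -0.12 to 0.17, for HSP90AB1 -0.16 to 0.14 and for HSPD1 -0.06 to 0.18. It was wider for HSPA8 (-0.28 to 0.27), HSPH1 (-0.29 to 0.26), HSPB1 (-0.25 to 0.25) and HSPA1B (-0.18 to 0.42), and widest for HSPA1A (-1.43 to 0.60), which had few counts in LNCaP. HSPA8 had 2274, 2418 and 1701 CPM in NC libraries 1 to 3 and 2363, 2286 and 1737 CPM in the mimic libraries. The 3 mimic values of HSPA8 lay within the range of the NC values. HSPA1B had 454, 419 and 342 CPM with NC and 473, 521 and 331 CPM with the mimic. Its lowest value was a mimic library and so was its highest. Without the lowest (mimic library 3) HSPA1B met the rule, as did 2.89% of 16449 genes. Its log2 fold change was then 0.29 and its unadjusted p 0.0170 (edgeR adjusted p = 0.999). Leaving out the lowest mimic value raises the fold change by itself, and NC library 3, the lowest with NC, was kept. Without both libraries numbered 3 the log2 fold change was 0.19 and the rule was not met (unadjusted p 0.0169, edgeR adjusted p = 0.718).

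In 22Rv1 0 of 10 members met the rule either, where 1.48% of 16898 genes did, 0.799% higher and 0.681% lower. The count at an unadjusted p under 0.05 was again 0 and DESeq2, with and without shrunken fold changes, and limma called 0 members. A fit with the replicate block took the genes that met the rule from 250 to 420 and called 0 members as well. Of the 10 log2 fold changes 9 were below 0, from -0.22 for HSPB1 to -0.02 for HSPH1, and HSPA1A was at 0.03. Their median was -0.13, with a median of -0.01 over all genes. The smallest unadjusted p was 0.241 (HSP90AA1), and the adjusted p-values of edgeR were all 0.999.

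HSP90AA1 and HSP90AB1, the stress-inducible and the constitutive cytosolic HSP90, were the members whose 22Rv1 groups did not overlap in CPM, both lower with the mimic. This is 2 of 10, where 8.78% of all genes were separated, 4.04% upward and 4.73% downward. HSP90AA1 had 1210, 1181 and 1207 CPM with NC and 1126, 1143 and 954 CPM with the mimic (log2 fold change -0.16, 95% interval -0.46 to 0.14). HSP90AB1 had 1595, 1608 and 1555 CPM with NC and 1345, 1516 and 1488 CPM with the mimic (log2 fold change -0.14, 95% interval -0.40 to 0.13). The gap was small beside the spread of the mimic libraries, the exact two-sided permutation p was 0.1 for each, the smallest that 3 against 3 allows, and in TPM both genes overlapped between the groups.

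Several members changed direction when mimic library 3 of 22Rv1 was left out and NC library 3 was kept. HSPD1 had 1780, 1719 and 1671 CPM with NC and 1731, 1754 and 1092 CPM with the mimic, so that mimic libraries 1 and 2 lay within the NC range and library 3 far under it. HSPE1, whose protein caps the HSPD1 chaperonin, had 172, 187 and 165 CPM with NC and 180, 174 and 121 CPM with the mimic, which is the same arrangement. Without mimic library 3 the log2 fold change turned from -0.18 to 0.02 for HSPD1, from -0.14 to 0.03 for HSPE1, from -0.13 to 0.12 for HSPA8, from -0.02 to 0.24 for HSPH1 and from -0.03 to 0.08 for DNAJB1. HSPA1A turned from 0.03 to -0.02, and HSP90AA1, HSP90AB1 and HSPA1B stayed below 0 at -0.08, -0.14 and -0.065. HSPB1 moved further down, from -0.22 to -0.28, so that 5 of 10 members lay below 0. None of these passed the rule. NC library 3, which stayed in, was also the lowest NC library for HSPA8, DNAJB1, HSPH1, HSPD1 and HSPE1. HSPA8 had 1554, 1518 and 939 CPM with NC and 1469, 1425 and 779 CPM with the mimic. Leaving out the mimic library alone therefore moves such fold changes upward. The part of the low oxygen and mitochondrial genes of mimic library 3 in these values was not tested.

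Without library 3 of both 22Rv1 groups, 1 of 10 members met the rule, HSPA1B (log2 fold change -0.21, unadjusted p 0.0243, edgeR adjusted p = 0.976), where 4.57% of 17101 genes did. With the block as well the log2 fold change of HSPA1B was again -0.21 (unadjusted p 0.00812, edgeR adjusted p = 0.516), where 6.11% of genes met the rule. HSP90AB1 had an unadjusted p of 0.0304 in the first of these fits and of 0.0104 with the block (log2 fold change -0.16 in both, edgeR adjusted p = 0.976 and 0.532), under the size that the rule asks for. In LNCaP the same omission of both libraries numbered 3 put HSPA1B in the opposite direction (log2 fold change 0.19, unadjusted p 0.0169), without meeting the rule.

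**Figure D2:**
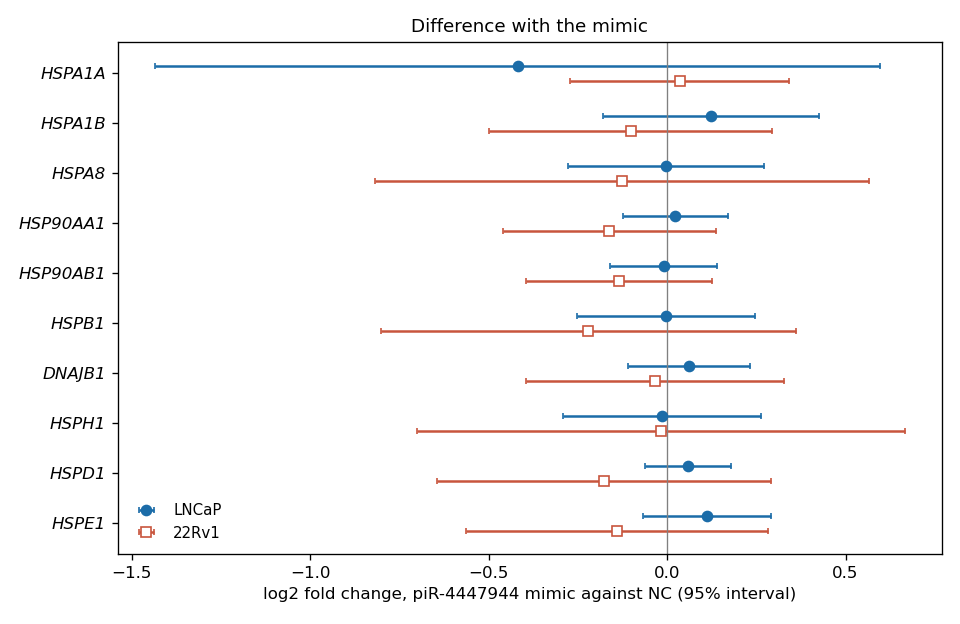
Difference between piR-4447944 mimic and NC for each chaperone (log2 fold change, x axis), with filled circles for LNCaP, open squares for 22Rv1 and bars for the 95% interval of the edgeR fit (3 against 3 libraries). Every interval holds 0; the estimates lie from -0.42 to 0.12 in LNCaP and from -0.22 to 0.03 in 22Rv1.

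Whether the lines differed in their response was tested by the interaction of line and mimic over all 12 libraries. None of the 10 members passed an unadjusted p of 0.05, where 3.26% of 18720 genes did (1.71% higher, 1.54% lower), and the edgeR adjusted p-values were all 1.00. The smallest unadjusted p was 0.199, for HSP90AA1, whose mimic effect was lower in 22Rv1 than in LNCaP by a log2 difference of -0.18 (95% interval -0.48 to 0.11). The other differences lay between -0.25 (HSPE1) and 0.47 (HSPA1A). Without the 22Rv1 mimic library 3 the difference of HSPA8 was 0.11 and that of HSPH1 0.24, and none passed either.

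The lines themselves differed more. Between the NC groups, 6 of 10 members differed at an edgeR adjusted p under 0.05, a share close to the 58.4% of 17497 genes that did, so the count is not particular to the chaperones. HSPA1A and HSPD1 were higher in 22Rv1, and HSPH1, HSP90AA1, HSPA8 and DNAJB1 were lower (30.9% and 27.5% of all genes were higher and lower). The median log2 fold change of the 10 members was -0.41, beside 0.01 over all genes. In 6 of 10 members the NC groups did not overlap, against 67.2% of all genes (34.7% upward, 32.5% downward). Between the mimic groups 7 of 10 members differed, 1 higher and 6 lower, where 52.4% of 17283 genes did (28.2% higher, 24.2% lower), and the groups of 7 members did not overlap, against 64.5% of genes (32.5% upward, 32.1% downward). Without the 22Rv1 mimic library 3, 8 of 10 members differed, where 69.5% of 17988 genes did. HSPA1A is described last, since its reads cannot be told apart well from those of HSPA1B.

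HSPH1, the exchange factor that reloads HSP70 with ATP, showed the largest difference among the members that were lower in 22Rv1. It had 215, 255 and 172 CPM in LNCaP NC and 88.2, 74.9 and 55.7 CPM in 22Rv1 NC, so the highest 22Rv1 library lay far below the lowest LNCaP library. The level was 2.95-fold lower in 22Rv1 (log2 fold change -1.56 ± 0.20 SE, edgeR adjusted p = 0.000280). In the mimic groups it had 232, 227 and 178 CPM in LNCaP and 85.9, 86.0 and 44.2 CPM in 22Rv1, with a log2 fold change of -1.55 ± 0.27 (SE, edgeR adjusted p = 0.00280), and of -1.30 without the 22Rv1 mimic library 3.

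HSP90AA1 had 2076, 2385 and 2005 CPM in LNCaP NC and 1210, 1181 and 1207 CPM in 22Rv1 NC. The 22Rv1 values differed little among themselves, and the log2 fold change was -0.86 ± 0.09 (SE, edgeR adjusted p = 0.000118), or 1.81-fold lower. With the mimic it was 2.03-fold lower (log2 fold change -1.02, edgeR adjusted p = 0.000338, and -0.95 without library 3). HSP90AB1, its constitutive counterpart, had 1597, 1738 and 1461 CPM in LNCaP NC and 1595, 1608 and 1555 CPM in 22Rv1 NC. The 22Rv1 values lay within the LNCaP range, and the 95% interval of the log2 fold change, -0.23 to 0.18, excludes a difference of the size seen for HSP90AA1.

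HSPA8 had 2274, 2418 and 1701 CPM in LNCaP NC and 1554, 1518 and 939 CPM in 22Rv1 NC. The groups were separated, by a small gap between the lowest LNCaP and the highest 22Rv1 library, and the log2 fold change was -0.68 ± 0.21 (SE, edgeR adjusted p = 0.0220). The call was lost without LNCaP NC library 1 (log2 fold change -0.65, edgeR adjusted p = 0.0709) and without LNCaP NC library 2 (-0.59, adjusted p = 0.0789). With the mimic the log2 fold change was -0.79 (edgeR adjusted p = 0.0367), and -0.55 without library 3 (adjusted p = 0.000500). DNAJB1, which delivers substrates to HSP70, had 130, 126 and 114 CPM in LNCaP NC and 99.1, 89.4 and 80.1 CPM in 22Rv1 NC. It was 1.39-fold lower in 22Rv1 (log2 fold change -0.47, edgeR adjusted p = 0.00610), and 1.46-fold lower with the mimic (log2 fold change -0.55, edgeR adjusted p = 0.00987, and -0.44 without library 3).

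Of the mitochondrial pair, HSPD1 was higher in 22Rv1 NC and HSPE1 did not pass. HSPD1 had 1185, 1225 and 1177 CPM in LNCaP NC and 1780, 1719 and 1671 CPM in 22Rv1 NC, with little spread in either group. It was 1.43-fold higher in 22Rv1 (log2 fold change 0.52 ± 0.08 SE, edgeR adjusted p = 0.000606). With the mimic the difference was 0.30 and did not pass (edgeR adjusted p = 0.218), and without the 22Rv1 mimic library 3 it was 0.49 and passed (edgeR adjusted p = 4.55e-06). HSPE1 had 159, 142 and 172 CPM in LNCaP NC and 172, 187 and 165 CPM in 22Rv1 NC, overlapping groups with a 95% interval of -0.09 to 0.37. With the mimic the log2 fold change of HSPE1 was -0.10 and did not pass (edgeR adjusted p = 0.648). On chromosome 2 (hg38) the annotated span of HSPE1, from 197500140 to 197503449 on the plus strand, lies within that of HSPD1, from 197486584 to 197516737 on the minus strand. The readthrough gene HSPE1-MOB4 held up to 3.47% of the counts of HSPE1 and HSPE1-MOB4 together.

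HSPB1, a small heat shock protein that holds unfolded proteins without ATP, had 456, 455 and 620 CPM in LNCaP NC and 286, 277 and 508 CPM in 22Rv1 NC. The groups overlapped through 22Rv1 library 3, and the log2 fold change of -0.53 did not pass (edgeR adjusted p = 0.0955). Without that library it was -0.87 and passed (edgeR adjusted p = 8.43e-05), and it passed as well with the mimic libraries (log2 fold change -0.72, edgeR adjusted p = 0.00283, and -0.79 without the 22Rv1 mimic library 3). The difference between both comparisons, tested as the interaction, was -0.21 (95% interval -0.88 to 0.45).

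**Figure D3:**
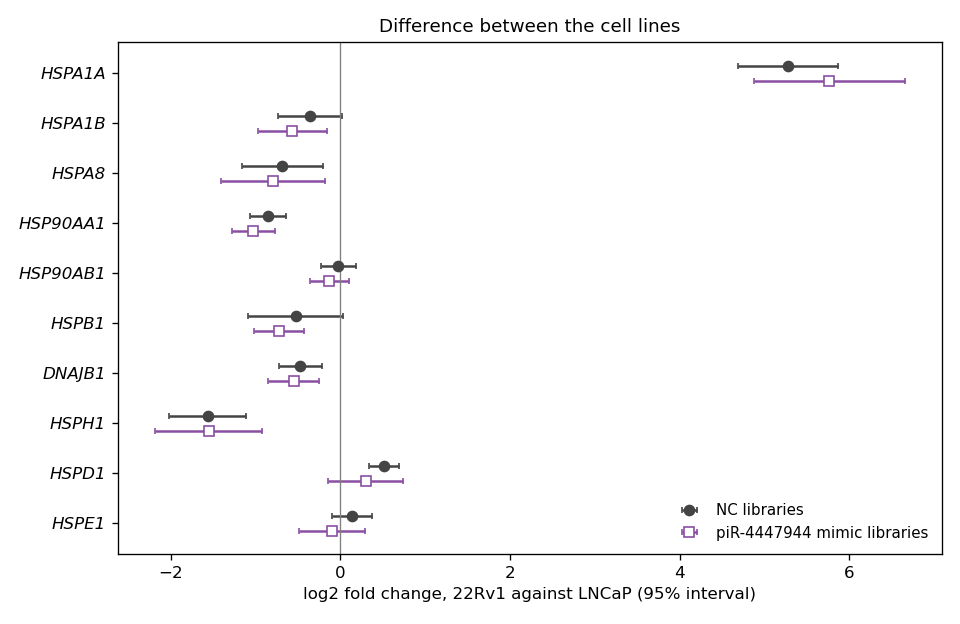
Difference between 22Rv1 and LNCaP for each chaperone (log2 fold change, x axis) in the NC libraries (filled circles) and in the mimic libraries (open squares), with the 95% interval of the edgeR fit (3 against 3 libraries). HSPA1A lies at 5.28 and 5.77, HSPH1 at -1.56 and -1.55, and HSP90AB1 near 0.

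HSPA1A and HSPA1B lie side by side on chromosome 6, from 31815543 to 31817946 and from 31827738 to 31830254 (hg38), and encode nearly the same protein. Of all 100-base windows of the transcript HSPA1A-201 (2400 bases), 72.4% were also found unaltered in HSPA1B, and of the shorter HSPA1A-202 (1909 bases) 60.6%. RSEM divides a read that matches both genes between them, so a value of one gene alone is uncertain.

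HSPA1A had 1.55, 2.26 and 0.964 CPM in LNCaP NC and 58.9, 62.6 and 68.6 CPM in 22Rv1 NC. The expected counts behind the values were between 8.88 and 43.97 in LNCaP and between 841 and 1293 in 22Rv1. The log2 fold change was 5.28 ± 0.25 (SE, edgeR adjusted p = 2.14e-06) in the NC groups and 5.77 ± 0.37 (SE, edgeR adjusted p = 5.54e-05) in the mimic groups, or 5.71 without the 22Rv1 mimic library 3. HSPA1B had 454, 419 and 342 CPM in LNCaP NC and 332, 374 and 250 CPM in 22Rv1 NC, overlapping groups with a log2 fold change of -0.36 that did not pass (edgeR adjusted p = 0.0971). With the mimic it was -0.56 and passed (edgeR adjusted p = 0.0294), and -0.54 without library 3.

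The summed counts of both genes differed less between the lines in the NC groups. The sum was 407 ± 57.6 CPM in LNCaP NC and 382 ± 59.6 CPM in 22Rv1 NC (SD, n = 3), and tested as 1 gene the log2 fold change was -0.10 (95% interval -0.44 to 0.24, edgeR adjusted p = 0.583). In the mimic groups the sum was 443 ± 99.1 CPM in LNCaP and 363 ± 17.2 CPM in 22Rv1, with overlapping libraries. HSPA1A held 0.281% to 0.535% of the pair's counts in LNCaP NC and 0.155% to 0.387% in LNCaP with the mimic. In 22Rv1 it held 14.3% to 21.6% with NC and 16.6% to 19.9% with the mimic. The exact 95% binomial intervals, which cover counting error only, were 0.0720% to 0.298% for the lowest LNCaP library and 13.5% to 15.2% for the lowest 22Rv1 library. The effective length that RSEM gave HSPA1A also moved with the line: it was between 1629 and 1710 bases in 5 LNCaP libraries, 2137 in the sixth (mimic library 3) and between 2080 and 2124 in 22Rv1. How much of the difference between the lines lies in the division of shared reads was not tested.

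A pattern chosen after the values were seen ran through the libraries numbered 3. HSPA1B, HSPA8, DNAJB1 and HSPH1 had their lowest CPM in library 3 in all 4 groups, which is 4 of 10 members, where 5.98% of 18720 genes did so. HSPB1 had its highest CPM in library 3 in all 4 groups, as did 6.06% of genes. No label or method says what libraries of the same number share.

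For HSPA8, library 3 lay below the mean of libraries 1 and 2 by log2 differences of -0.46 (LNCaP NC), -0.42 (LNCaP mimic), -0.71 (22Rv1 NC) and -0.89 (22Rv1 mimic). HSPH1 showed differences of -0.44, -0.37, -0.54 and -0.96 in the same order, and DNAJB1 smaller ones of -0.18, -0.20, -0.23 and -0.35. HSPB1 was higher by 0.44, 0.30, 0.85 and 0.19. The HSP90 genes moved less, with HSP90AB1 between -0.19 and 0.06 and HSP90AA1 between -0.25 and 0.01. HSPD1 was between -0.07 and 0.02 in 3 groups and at -0.67 in the 22Rv1 mimic group.

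The low oxygen list was also highest in library 3 of all 4 groups, at 313, 381, 514 and 3720 TPM, and so were the summed luminal markers and the summed markers of other cell types. Their part in the chaperone values was not tested. Without the libraries numbered 3 of both lines, 9 of 10 members differed between the lines in place of 6, where 65.2% of 18031 genes did, so the count rose over all genes as well. HSPA1B (log2 fold change -0.33), HSPB1 (-0.71) and HSPE1 (0.23) were then called as well.

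**Figure D4:**
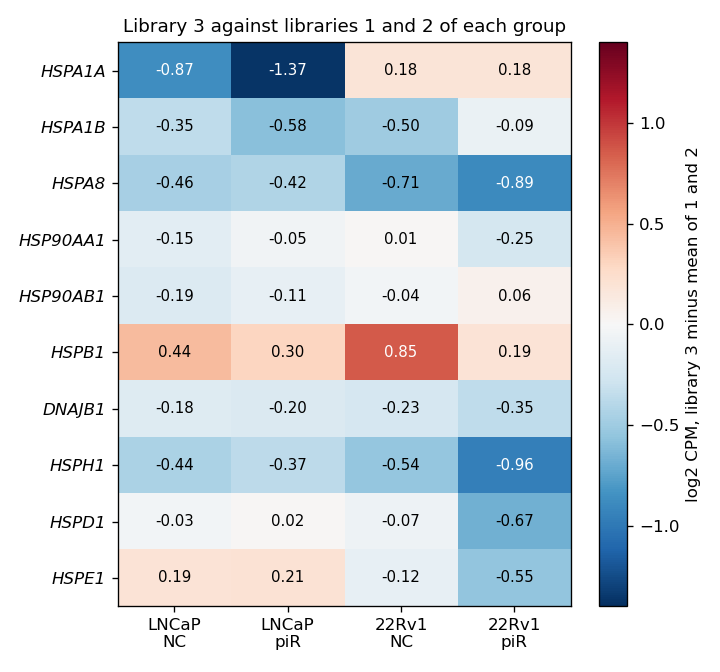
Log2 difference in CPM between library 3 and the mean of libraries 1 and 2, by chaperone (rows) and group (columns, piR = mimic), with blue for lower and red for higher. HSPA8, HSPH1, DNAJB1 and HSPA1B are below 0 in all 4 groups and HSPB1 above 0 in all 4.

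The same libraries shape the correlations between members, which are no second observation of the pattern. After the mean of each group was removed, log2 CPM over the 12 libraries gave a Pearson correlation of 0.97 between HSPA8 and HSPH1, 0.96 between DNAJB1 and HSPH1 and 0.96 between HSPA8 and DNAJB1. HSPD1 and HSPE1 had 0.81. HSPB1 went against HSPA1B (-0.86) and HSPA8 (-0.82). These are descriptions of 12 libraries that share depth scaling and, in part, a number. The other genes whose centred log2 CPM was most like the mean of the 10 members were UBR7 (0.99), ZNF273 (0.98), NIF3L1 (0.97), LRRC40 (0.96) and DONSON (0.96), again over 12 libraries. They were picked as the highest of all genes tested. That mean was lowest in library 3 of every group. It weights all members alike, also HSPA1A, whose few counts in LNCaP gave a log2 CPM SD of 0.56 (NC) and 0.82 (mimic). The likeness without HSPA1A was not computed.

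The rest of the chaperone network was described by lists. Genes counted as higher or lower in 22Rv1 NC had an edgeR adjusted p under 0.05. Of all 17497 genes, 30.9% were higher and 27.5% lower by that measure. The counts of these short lists stand beside those shares and were not tested against them. Of 4 genes for heat shock factors and their binding protein HSBP1, HSF1 was lower in 22Rv1 NC. It was at 77.2 ± 2.35 TPM in LNCaP and 47.5 ± 5.03 in 22Rv1 (log2 fold change of CPM -0.77, edgeR adjusted p = 0.000433). HSBP1, whose product binds HSF1 trimers, was higher (log2 fold change 0.78, edgeR adjusted p = 0.000154). HSF2 and HSF4 did not pass. Between the mimic groups HSF1 was again lower (log2 fold change -0.60, edgeR adjusted p = 0.00623), and HSBP1 did not pass. None of the 4 met the rule for the mimic in either line.

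Among 9 other HSP70 and HSP110 genes, 3 were higher and 3 lower in 22Rv1 NC. HSPA4, another HSP110 exchange factor, was at 165 ± 35.3 TPM in LNCaP and 59.8 ± 8.84 in 22Rv1 (log2 fold change of CPM -0.94, edgeR adjusted p = 0.000337). HSPA2, a testis-enriched HSP70, was at 0.480 ± 0.318 TPM in LNCaP and 6.15 ± 0.775 in 22Rv1 (log2 fold change 3.74, edgeR adjusted p = 0.000431). HSPA13, a microsomal HSP70, was higher too (log2 fold change 1.16, edgeR adjusted p = 0.000393).

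Of 8 exchange factors and partners of HSP70, 2 were higher and 5 lower, beside 30.9% and 27.5% of all genes. BAG3, which links HSP70 to autophagy, was at 55.7 ± 3.81 TPM in LNCaP NC and 19.7 ± 2.25 in 22Rv1 NC (log2 fold change -1.38, edgeR adjusted p = 2.18e-05), and ST13, the HSP70-interacting protein Hip, at 385 ± 65.6 and 172 ± 7.77 TPM (log2 fold change -0.98, edgeR adjusted p = 0.000125). BAG1 went the other way (65.2 ± 4.24 and 251 ± 60.4 TPM, log2 fold change 1.75, edgeR adjusted p = 3.25e-05). Their median log2 fold change was -0.38.

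Of 12 HSP90 co-chaperones, 2 were higher in 22Rv1 NC and 6 lower, with a median of -0.27. FKBP5, an androgen-regulated immunophilin, was at 27.5 ± 2.02 TPM in LNCaP and 125 ± 38.3 in 22Rv1 (log2 fold change 2.24, edgeR adjusted p = 7.46e-05). SUGT1 was higher as well (1.24, adjusted p = 7.61e-05) and UNC45A, a myosin chaperone, lower (-0.78, adjusted p = 0.000538). In the interaction test 2 of 12 passed an unadjusted p of 0.05, where 3.26% of all genes did. Both had a lower mimic effect in 22Rv1: AHSA1, which activates the HSP90 ATPase (log2 difference -0.36, unadjusted p 0.0318), and STIP1, which joins HSP70 to HSP90 (-0.33, unadjusted p 0.0354). The edgeR adjusted p of both was 1.00. In the other lists of the network CCT3 (-0.32, unadjusted p 0.0405) and, in the opposite direction, SERPINH1 (1.55, unadjusted p 0.0167, with 1 to 7 counts in LNCaP) passed the interaction, with an edgeR adjusted p of 1.00 as well.

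Of 10 other J proteins, 2 were higher and 4 lower in 22Rv1 NC. DNAJA4 had between 7 and 23 expected counts in the LNCaP libraries and between 608 and 1040 in those of 22Rv1 (0.617 ± 0.404 and 27.3 ± 1.64 TPM with NC, edgeR adjusted p = 1.66e-06). DNAJB2 (log2 fold change -0.84, adjusted p = 0.00567) and DNAJA2 (-0.52, adjusted p = 0.00408) were lower. Of 8 other small heat shock proteins only 4 had enough counts to be tested. HSPB6, the muscle protein HSP20, had 2 to 4 counts in each LNCaP library and 2363 to 6684 in those of 22Rv1 (0.167 ± 0.0723 and 288 ± 68.1 TPM with NC, edgeR adjusted p = 2.80e-07). HSPB8, a partner of BAG3, was higher (4.44 ± 0.769 and 26.8 ± 26.9 TPM, adjusted p = 0.0121) and HSPB11 lower (109 ± 4.54 and 54.8 ± 12.6 TPM, adjusted p = 0.00217).

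Of 11 mitochondrial chaperones and proteases, 4 were higher and 2 lower in 22Rv1 NC, with a median of 0.15. HSPA9, the mitochondrial HSP70, was higher together with HSPD1 (221 ± 20.7 and 360 ± 65.3 TPM, log2 fold change 0.77, edgeR adjusted p = 0.00232), and so were YME1L1 (0.44, adjusted p = 0.00484) and CLPB (0.53, adjusted p = 0.00530). Of 9 chaperones of the endoplasmic reticulum, 4 were higher and 0 lower (median 0.28). HSP90B1, the HSP90 of that compartment, was at 1002 ± 97.4 TPM in LNCaP and 1607 ± 393 in 22Rv1 (log2 fold change 0.83, edgeR adjusted p = 0.00681). DNAJC3 was higher (1.11, adjusted p = 0.000337), and SERPINH1, the collagen chaperone HSP47, had between 1 and 7 counts in LNCaP and between 321 and 501 in 22Rv1 (edgeR adjusted p = 9.93e-07). Of the 8 subunits of the CCT chaperonin, which folds actin and tubulin, 3 were higher and 1 lower. CCT7 (0.70, adjusted p = 0.000594) and CCT4 (0.42, adjusted p = 0.0130) were higher, and CCT3 (-0.28, adjusted p = 0.0199) was lower. Between the mimic groups, 22Rv1 library 3 included, 28.2% of 17283 genes were higher and 24.2% lower. There 1 endoplasmic reticulum chaperone was higher and 0 lower (median -0.16), and 2 mitochondrial chaperones or proteases higher and 1 lower (-0.02). For CCT it was 1 and 2 (-0.09), for other J proteins 2 and 2, and for small heat shock proteins 2 and 1. It was 4 and 3 for other HSP70 and HSP110 genes, 2 and 4 for HSP70 partners and 2 and 7 for HSP90 co-chaperones.

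With the mimic 0 genes of these lists of the network met the rule in LNCaP. In 22Rv1, 2 of the 8 CCT subunits met it, TCP1 (log2 fold change -0.31, unadjusted p 0.0418) and CCT3 (-0.35, unadjusted p 0.0471), both with an edgeR adjusted p of 0.999. All 8 CCT log2 fold changes were below 0, between -0.35 and -0.19. In the other lists of the network 0 genes met the rule, where 1.48% of all genes did. The median was -0.46 for the 9 chaperones of the endoplasmic reticulum and -0.15 for the 12 HSP90 co-chaperones, beside -0.01 over all genes.

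Mimic library 3, in which the low oxygen genes summed to 3720 TPM and the mitochondrially encoded genes to 35734 TPM, is among the libraries behind these values. Without it TCP1 and CCT3 still met the rule (log2 fold changes -0.24 and -0.24, unadjusted p 0.0395 and 0.0451, edgeR adjusted p = 0.979 for both), and all 8 CCT values lay between -0.25 and -0.07. The median was then -0.24 for the chaperones of the endoplasmic reticulum and -0.16 for the HSP90 co-chaperones.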

How the data were processed

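Reads were mapped by the authors with STAR 2.7.1a (hg38) and genes were quantified with RSEM 1.3.0. The deposited expected counts are estimated reads per gene, not normalized, and RSEM shares reads with several matches out among the genes. The deposited TPM are those counts scaled by effective length to a fixed sum, so they hold no depth. The annotation release, read length and strand setting were not given in the sources used here. Gene positions came from GENCODE (hg38), whose identifiers, versions included, equalled those of the 10 members.

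Expected counts (12161091 to 22179601 per library) were rounded and tested with edgeR 4.0.16 in R 4.3.3 (TMM, filterByExpr, quasi-likelihood test), for each pair of groups apart and over all 12 libraries for the interaction. Adjusted p-values are Benjamini-Hochberg values over every gene tested. The mimic comparisons used the thresholds that the authors applied to shrunken fold changes of DESeq2 1.34.0. Single genes were also compared with an exact permutation test. The scripts were checked on simulated data.

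All 10 members were described. Other lists are given by counts, with up to 3 called genes of smallest p per list and comparison, and 5 genes by likeness to the mean of the members. The members and lists were chosen with earlier results of these data known.

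Deviations of 22Rv1 libraries with the same number correlated at 0.252, 0.197 and 0.394. NC library 1 and mimic library 2 reached 0.239, so numbers 1 and 2 did not stand apart. Libraries numbered 3 correlated with other numbers at -0.211 or below. The main fits used no pairing, and the replicate block was an alternative. Alternatives were DESeq2 1.42.0, limma 3.58.1 on log2(TPM + 1), other filters, a replicate block, HSPA1A and HSPA1B summed, and leaving out libraries.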

Additional observations from a re-analysis of the deposited data

How the results depend on the processing

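Leaving out each library in turn, 5 to 7 members were called between the lines (with 8453 to 12117 genes, 46.9% to 66.2%). In LNCaP 0 to 1 were called (HSPA1B without mimic library 3, where 2.89% of genes were), in 22Rv1 0 and in the interaction 0. Without both 22Rv1 libraries numbered 3, 1 member met the rule in 22Rv1, with and without the replicate block. The omission with the block, that of both LNCaP libraries numbered 3 and those of libraries numbered 3 between the lines were chosen after seeing the data. Of 778 values of single members under the alternatives, 686 kept direction and call, 71 changed sign, 17 gained the call and 5 lost it, among them HSPA1A between the lines when summed with HSPA1B, which also changed sign. The cause of these changes was not tested. Depth limits HSPA1A in LNCaP, with 8.88 to 43.97 expected counts.

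Among the log2 fold changes that changed sign in LNCaP, leaving out 1 library gave -0.010 to 0.29 for HSPA1B, -0.14 to 0.12 for HSPA8, -0.024 to 0.10 for HSP90AA1, -0.068 to 0.057 for HSP90AB1, -0.11 to 0.16 for HSPB1 and -0.15 to 0.13 for HSPH1. In limma on log2(TPM + 1), with and without the TPM filter, HSPA8 was 0.00389 and HSPH1 0.0609, and with a pseudocount of 0.1 they were 0.00390 and 0.0616. Summed with HSPA1B, HSPA1A was 0.12. Without both libraries numbered 3, HSP90AA1 was -0.00786 and HSPB1 0.0559.

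In 22Rv1, leaving out 1 library gave -0.020 to 0.099 for HSPA1A, -0.25 to 0.031 for HSPA1B, -0.33 to 0.12 for HSPA8, -0.37 to 0.13 for HSPB1, -0.10 to 0.082 for DNAJB1, -0.18 to 0.24 for HSPH1, -0.29 to 0.020 for HSPD1 and -0.26 to 0.026 for HSPE1. In limma on log2(TPM + 1), with and without the TPM filter, DNAJB1 was 0.00101 and HSPH1 0.0504, and with a pseudocount of 0.1 they were 0.000984 and 0.0496. Summed with HSPA1B, HSPA1A was -0.0786. Without both libraries numbered 3, HSPB1 was 0.0712, DNAJB1 0.0110, HSPH1 0.0826 and HSPD1 0.00150, and with the replicate block as well 0.0706, 0.0133, 0.0879 and 0.00163.

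Between the lines, leaving out 1 library gave -0.10 to 0.032 for HSP90AB1, HSPA1A summed with HSPA1B was -0.10, and HSPE1 in the mimic libraries -0.0966. HSPA1B and HSPB1 were also called without a low-count filter (-0.39 and -0.56), HSPB1 with DESeq2 (-0.52) and HSPA1B without 22Rv1 NC library 2 (-0.49), while HSPA8 lost its call in limma without the TPM filter (-0.75). Limma on log2(TPM + 1) moved the median of all genes to -0.11 there.

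In the interaction, leaving out 1 library gave -0.17 to 0.013 for DNAJB1, -0.32 to 0.11 for HSPA8, -0.38 to 0.13 for HSPB1 and -0.16 to 0.24 for HSPH1. HSPH1 was 0.00170 with DESeq2 size factors, 0.00601 without a low-count filter, 0.00148 with at least 10 counts in every library and 0.00242 with DESeq2. HSPA1A summed was -0.20, and without both 22Rv1 libraries numbered 3 HSPB1 was 0.0636 and HSPH1 0.0848.

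The correlation of same-numbered libraries was 0.0631, 0.00573 and 0.241 in LNCaP and 0.0151, 0.0314 and 0.120 between the lines. The main fits of these comparisons used no pairing either. The replicate block called 508 genes in LNCaP and 8 members between the lines (55.5% of all genes), HSPA1B (-0.37) and HSPB1 (-0.57) added, and turned HSPB1 in LNCaP to 0.00399; no other call of a member changed with it.

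Genes called in LNCaP were 361, but 891 without a low-count filter, 578, 560 and 895 in limma (pseudocounts 1 and 0.1, and without the TPM filter), 168 with all 12 libraries in one fit, 3 with shrunken DESeq2 values, 1008 without NC library 3 and 929 without both libraries numbered 3. In 22Rv1 they were 250, but 532, 459, 449 and 772 under the same filter and limma settings, 420 with the block, 1232 with all 12 libraries, 376 without mimic library 3, 781 without both libraries numbered 3 and 1045 with the block as well. In the interaction they were 610, but 1035 without a filter, 338 with at least 10 counts, 1180 in limma without the TPM filter, and 407 to 1041 when each library was left out. Limma on log2(TPM + 1) moved the share of called genes that were higher from 54.0% to 69.9% in 22Rv1 and from 52.6% to 67.0% in the interaction. At an adjusted p under 0.05, edgeR called 0 genes for the mimic in either line (433 and 250 at an unadjusted p under 0.05) and DESeq2 2 and 1.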
